A study of Mus musculus with 20 samples.

Results

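The comparison covered the first 12 h of untreated culture in mouse motor neurons grown out of embryonic stem cells, in 8 of the 20 libraries of a series on protein misfolding stress. The members were chosen by their labels alone: untreated libraries at 12 h and libraries at 0 h of both lines, with 4 libraries at each time. At 12 h these were 2 NIL and 2 NIP libraries labelled con, and at 0 h 2 NIL and 2 NIP libraries. NIL is the line labelled spinal and NIP the line labelled cranial. In this field the names stand for the transcription factors that turn the stem cells into motor neurons, Neurog2, Isl1 and Lhx3 for NIL and Neurog2, Isl1 and Phox2a for NIP. No library of the 8 received cyclopiazonic acid, the drug used at 20 µM in other libraries to stress the endoplasmic reticulum, and the labels do not say whether the con cultures received its solvent. All cultures started from day 2 of motor neuron culture in medium with serum. The titles give 12 h, while another label text of the series gives 6 h as the first later time, so the length of the interval rests on the titles. The question was which transcripts differed between 12 h and 0 h in both lines alike, without any stressor.

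Immediate early genes are switched on within minutes when a cell meets growth factors, serum, depolarisation or handling, and their messages are short-lived. Fos and Junb encode subunits of the AP-1 transcription factor, and Egr1, Egr2 and Egr3 encode zinc-finger factors of the early growth response family. In neurons these genes are read as a record of recent stimulation. A young motor neuron also keeps adding channels, receptors and adhesion molecules as it matures, while genes of its progenitor stage are shut down.

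The stretches of 250 bases before the start site are shown for 4 immediate early genes that were lower at 12 h in both lines, because known control elements of this gene class lie close to the start. Capitals mark the CArG box, the site bound by serum response factor, and the letters TGACG on either strand, the core of the cAMP response element. The sequences come from RefSeq (GRCm38.p6) and read 5′ to 3′ on the strand of the gene: Fos at chr12:85473640-85473889 (plus strand), Junb at chr8:84978749-84978998 (minus strand), Egr2 at chr10:67537619-67537868 (plus strand) and Maff at chr15:79347270-79347519 (plus strand).
Fos: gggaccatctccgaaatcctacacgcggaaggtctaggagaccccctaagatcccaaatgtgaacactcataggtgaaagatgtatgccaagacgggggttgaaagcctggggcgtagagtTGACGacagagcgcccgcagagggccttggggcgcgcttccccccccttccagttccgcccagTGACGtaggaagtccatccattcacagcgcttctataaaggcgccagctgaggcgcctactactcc
Junb: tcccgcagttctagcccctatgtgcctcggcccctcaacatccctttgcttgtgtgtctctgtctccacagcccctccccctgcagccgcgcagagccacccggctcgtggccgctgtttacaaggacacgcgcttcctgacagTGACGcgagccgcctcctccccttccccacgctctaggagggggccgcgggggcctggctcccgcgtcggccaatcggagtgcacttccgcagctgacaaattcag
Egr2: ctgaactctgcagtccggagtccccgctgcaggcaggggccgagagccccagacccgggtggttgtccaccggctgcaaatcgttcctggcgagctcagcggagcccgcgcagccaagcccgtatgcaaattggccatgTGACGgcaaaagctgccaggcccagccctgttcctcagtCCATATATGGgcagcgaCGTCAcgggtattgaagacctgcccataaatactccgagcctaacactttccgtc
Maff: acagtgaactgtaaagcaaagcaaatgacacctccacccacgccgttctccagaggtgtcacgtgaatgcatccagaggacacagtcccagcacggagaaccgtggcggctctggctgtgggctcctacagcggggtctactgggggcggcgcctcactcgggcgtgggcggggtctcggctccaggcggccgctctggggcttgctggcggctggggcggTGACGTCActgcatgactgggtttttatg
Egr2 and Maff have further listed start sites. The start printed was picked by hand and not by a rule, and distances are from that start. The CArG box of Egr2 begins 72 bases before that start site, and TGACG letters begin 129 and 66 bases before the start of Fos. In Maff the letters of both strands join into the full element TGACGTCA at 29 bases before the start. Of the 32 immediate early genes on the list, 24 had 30 promoters in the table. A CArG box was in 20% of these 30, in Dusp5, Egr2 and Srf, against 1.47% of all 32851 promoters and 1.21% of the promoters of tested genes. Counted by gene, it was in 12.5% of the 24, against 1.62% of all genes in the table. TGACG, which the full element contains, was in 66.7%, against 17.8% of all promoters and 25.7% of those of tested genes, and TGACGTCA itself in 10%, against 1.55% and 2.66%. A match describes these letters and is not evidence of binding.

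Gene reads ran from 7996454 to 30321152 in the 8 libraries, with a median of 20013575. Replicates of the groups differed by more than sampling noise (chi-square per degree of freedom 30.1 to 191). Nothing in the labels ties the replicates to independent cultures, and the p-values therefore cover sample-to-sample spread that may be technical. Motor neuron markers were present as the labels imply. Isl1, a factor of both types, had 123 to 249 CPM (counts scaled to a common TMM-adjusted library size) at 12 h and 120 to 239 CPM at 0 h. Lhx3 and Mnx1, spinal motor neuron factors, had 127 and 166 CPM and 60.8 and 65.7 CPM in NIL at 12 h, and at most 0.164 CPM in NIP. Phox2a, a cranial motor neuron factor, had 130 and 222 CPM in NIP at 12 h, and at most 2.09 CPM in NIL. Counts cannot separate the inserted factors from the genes of the cell. In bulk RNA, fewer cells of a type and less RNA per cell cannot be told apart.

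With both lines averaged, no gene of 14792 passed edgeR's quasi-likelihood test at an adjusted p of 0.05 (Benjamini-Hochberg; 0% called). At an unadjusted p under 0.05 there were 1236 genes (8.36%), 584 higher at 12 h (3.95%) and 652 lower (4.41%). DESeq2 with the same model called 18 genes, 2 higher and 16 lower at 12 h, each in the same direction in 4 of 4 pairs of libraries with the same line and replicate number. The smallest adjusted p in the edgeR test was 0.0524, and 6 genes shared it: Ier2, Junb, Egr2, Fos, Egr3 and Crabp2. All 6 were lower at 12 h in 4 of 4 pairs, and 5 of them are immediate early genes. They are named after their values were seen, since the naming rule picks only genes that pass. The median standard error of the averaged log2 change was 0.15, and for 12065 genes (81.6%) the 95% interval lay within 1 log2 unit of 0. Over all genes the median log2 change was 0.01.

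The immediate early genes were lower at 12 h than at 0 h in both lines. Of the 32 listed and tested, 27 had an estimate below 0, 17 had an unadjusted p under 0.05 and 21 were lower at 12 h in 4 of 4 pairs, while none was higher in all pairs. Among all genes 11.2% were lower in all 4 pairs and 12.6% higher. The list's median log2 change was -0.51, with -0.34 and -0.31 in the NIL pairs and -0.75 and -0.48 in the NIP pairs. Summed over the list, levels were 1107.6 to 1301.0 CPM at 12 h and 1436.2 to 1824.9 CPM at 0 h, so the ranges did not overlap.

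Fos had 14.1 and 9.52 CPM in NIL and 11.5 and 7.80 CPM in NIP at 12 h, against 42.8 and 51.1 CPM in NIL and 28.5 and 67.0 CPM in NIP at 0 h. The highest library at 12 h was below the lowest at 0 h, and the log2 change was -2.06 ± 0.31 (standard error; adjusted p = 0.0524). In DESeq2 Fos was the only gene past 0.05 in each line alone, with log2 changes of -1.94 in NIL (adjusted p = 0.00695) and -2.22 in NIP (adjusted p = 0.000242). Junb had 26.7 and 38.5 CPM in NIL and 36.5 and 39.8 CPM in NIP at 12 h, against 45.1 and 68.3 CPM in NIL and 61.0 and 106.3 CPM in NIP at 0 h. The groups again did not overlap, with a log2 change of -0.93 ± 0.15. Ier2, a short nuclear protein of the same gene class, had 22.3 and 47.0 CPM in NIL and 32.0 and 45.1 CPM in NIP at 12 h, against 35.03 and 64.2 CPM in NIL and 53.9 and 98.4 CPM in NIP at 0 h. Here the groups overlapped because replicate 2 was above replicate 1 at both times, yet every pair was lower at 12 h (log2 change -0.74 ± 0.12).

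**Figure D1:**
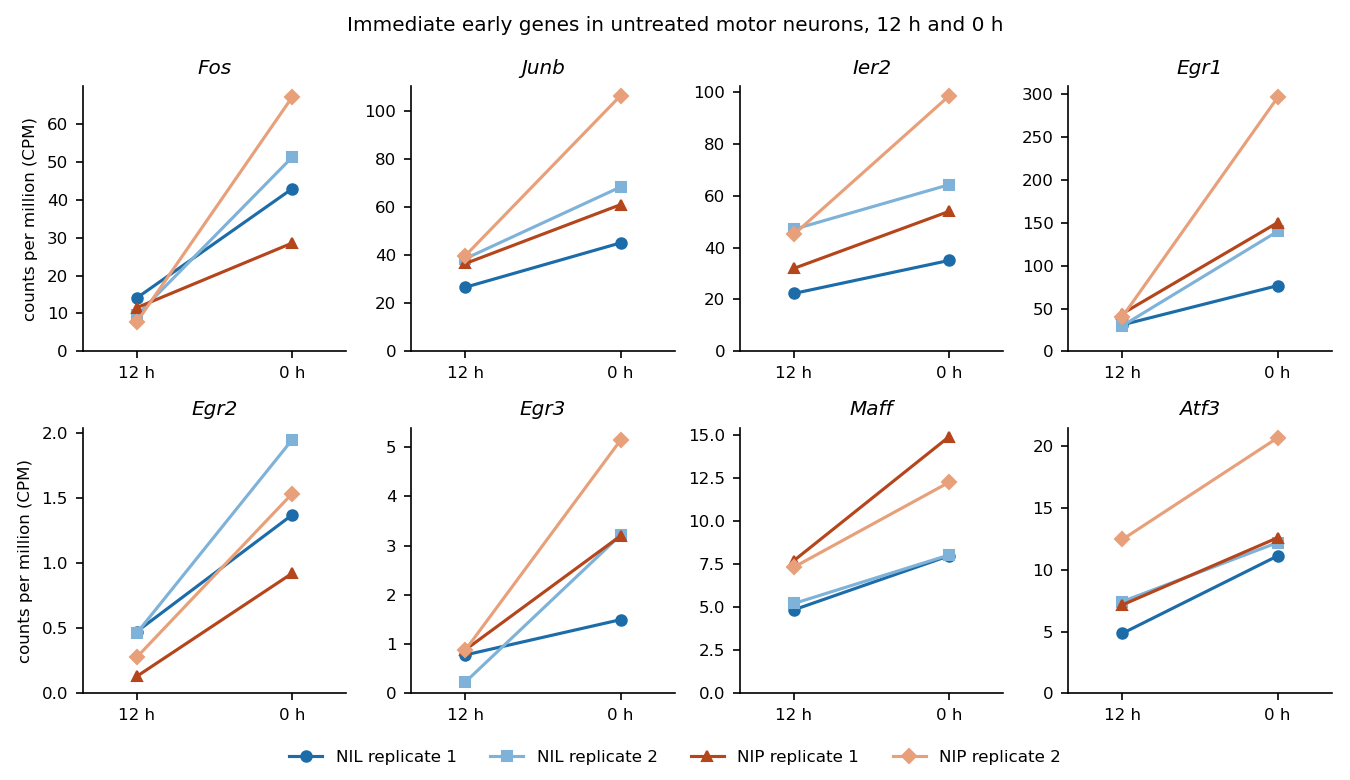
Levels of 8 immediate early genes in CPM (linear axes from 0) in each untreated library at 12 h and 0 h; lines join libraries of the same line and replicate number. Every line is lower at 12 h, and for Fos, Junb, Egr1, Egr2, Egr3 and Maff all 4 libraries at 12 h lie below all 4 at 0 h.

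Egr1 was the most abundant of the Egr genes, with 31.1 and 30.0 CPM in NIL and 44.1 and 40.6 CPM in NIP at 12 h, against 76.7 and 140.0 CPM in NIL and 150.2 and 296.1 CPM in NIP at 0 h. The 12 h libraries lay close together and the 0 h libraries far apart, and the log2 change of -1.97 ± 0.41 had an adjusted p of 0.477. Egr2 rested on few reads, 4 to 14 per library at 12 h and 17 to 43 at 0 h, or 0.476 and 0.464 CPM in NIL and 0.131 and 0.279 CPM in NIP at 12 h, against 1.37 and 1.95 CPM in NIL and 0.922 and 1.53 CPM in NIP at 0 h (log2 change -2.13 ± 0.35). Egr3 was similarly scarce, with 0.232 to 0.887 CPM at 12 h and 1.498 to 5.14 CPM at 0 h (log2 change -1.98 ± 0.34). Maff, a small Maf transcription factor, had 4.86 and 5.22 CPM in NIL and 7.72 and 7.34 CPM in NIP at 12 h, against 8 and 8.04 CPM in NIL and 14.9 and 12.3 CPM in NIP at 0 h (log2 change -0.77 ± 0.16, adjusted p = 0.249). The same separation held for Dusp5, a phosphatase that switches off ERK, with 1.07 to 2.44 CPM at 12 h and 2.87 to 5.00 CPM at 0 h (log2 change -1.12 ± 0.27). In all, 7 of the 32 genes had every 12 h library below every 0 h library, against 0.548% of all genes, and 0 were fully above it, against 0.324%.

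Other members were lower in all 4 pairs with overlapping groups. Atf3, a stress-induced factor of the ATF family, had a log2 change of -0.87 ± 0.18 (adjusted p = 0.268), Arc, an effector of synaptic plasticity, -1.20 ± 0.41, Myc -0.45 ± 0.20 and Srf, which encodes serum response factor itself, -0.27 ± 0.11. Dusp6, a feedback phosphatase of ERK signalling, had -0.43 ± 0.26, with an unadjusted p of 0.114. Not every member followed: 5 of 32 had an estimate above 0, among them Jun, the partner of Fos in AP-1, at 0.12 ± 0.17 with 138 to 207 CPM at 12 h and 80.5 to 222 CPM at 0 h. Without any 1 of the 8 libraries, 22 members were lower in all 3 pairs left. That criterion is looser than 4 pairs: 14.5% to 21.6% of all genes met it, by the pair left out.

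Genes of retinoic acid handling supplied a further gene at the smallest adjusted p. Crabp2 encodes a protein that carries retinoic acid into the nucleus, and retinoic acid is the signal used to pattern motor neurons from stem cells. It had 8.73 and 9.64 CPM in NIL and 5.22 and 6.36 CPM in NIP at 12 h, against 24.4 and 19.9 CPM in NIL and 11.1 and 10.3 CPM in NIP at 0 h. All 4 libraries at 12 h were below all 4 at 0 h (log2 change -1.08 ± 0.19, adjusted p = 0.0524). Stra6, a retinol uptake receptor, had a log2 change of -0.57 ± 0.24, and Cyp26a1, which degrades retinoic acid, -0.51 ± 0.26. Of 21 tested genes of the list, 6 were lower and 3 higher in all 4 pairs, with a median of -0.09. The labels do not say whether retinoic acid was in the medium at either time.

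Among the 12 genes with the smallest p only Clk1 and Chl1 were higher at 12 h. Clk1, a kinase of the SR splicing factors, had 49.6 and 42.8 CPM in NIL and 51.1 and 38.2 CPM in NIP at 12 h, against 32.0 and 29.6 CPM in NIL and 26.7 and 20.9 CPM in NIP at 0 h. The groups did not overlap (log2 change 0.74 ± 0.14, adjusted p = 0.15). Chl1, a neuronal adhesion molecule close to L1, had 18.3 and 16.2 CPM in NIL and 25.1 and 24.9 CPM in NIP at 12 h, against 11.2 and 10.2 CPM in NIL and 18.2 and 13.7 CPM in NIP at 0 h. It was higher in every pair and within each line without overlap (log2 change 0.68 ± 0.13, adjusted p = 0.15).

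**Figure D2:**
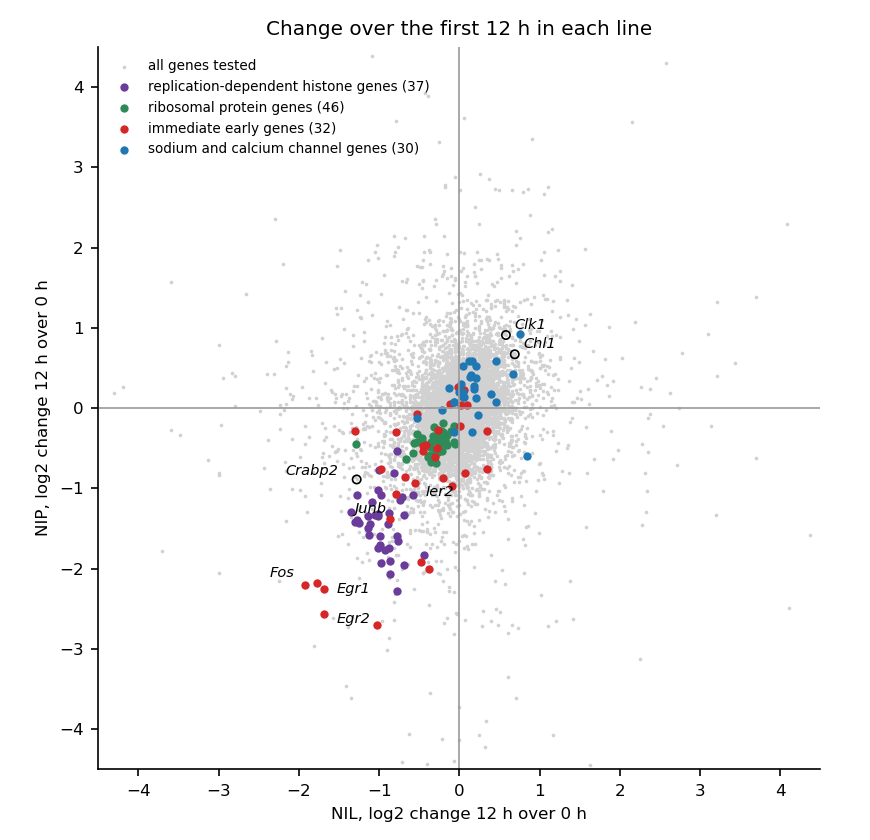
Log2 change from 0 h to 12 h in NIL (horizontal axis) and NIP (vertical axis) for each gene tested, from the edgeR model; 8 genes beyond 4.5 on either axis are not drawn. Immediate early genes (median -0.51 with the lines averaged) and replication-dependent histone genes (median -1.22) lie toward the lower left, and open circles mark Crabp2, Clk1 and Chl1.

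The widest shift of a list was in the replication-dependent histone genes, whose mRNAs end in a stem-loop in place of a poly(A) tail and are made in S phase. All 37 tested of 39 listed were lower at 12 h in 4 of 4 pairs, and 35 had an unadjusted p under 0.05, though none passed after adjustment. Their median log2 change was -1.22, and the pairs gave -0.51 and -1.19 in NIL and -1.04 and -1.86 in NIP. Hist1h1e, a linker histone, had 162 and 286 CPM in NIL and 77.6 and 84.5 CPM in NIP at 12 h, against 227 and 534 CPM in NIL and 140 and 225 CPM in NIP at 0 h. Each pair was lower, while the NIL and NIP libraries overlapped across times (log2 change -0.91 ± 0.23). Summed over the list, levels were 538.0 to 3641.9 CPM at 12 h and 1119.7 to 7670.4 CPM at 0 h.

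Proliferation genes did not differ as widely. Of 30 tested, 11 were lower and 1 was higher in all 4 pairs, with a median of -0.21 (0.00 and -0.06 in the NIL pairs, -0.34 and -0.35 in the NIP pairs) and a summed level of 194.8 to 1424.7 CPM at 12 h and 247.6 to 1492.0 CPM at 0 h. Mki67, a marker of dividing cells, had a log2 change of -0.29 ± 0.31 (adjusted p = 0.841). Other RNAs without a poly(A) tail are given beside the histones, as genes chosen after their values were seen, and they did not share a direction. Rmrp, the RNA of a ribonuclease, was lower at 12 h in 4 of 4 pairs (log2 change -0.97 ± 0.73, adjusted p = 0.767). Rn45s, the ribosomal RNA precursor, was also lower in each pair (log2 change -0.55, adjusted p = 0.843). It took 5.18% and 11.6% of gene reads in NIL and 7.22% and 9.36% in NIP at 12 h, against 5.71% and 15.5% in NIL and 12.9% and 11.9% in NIP at 0 h. Malat1, which also ends without a poly(A) tail, had a higher estimate at 12 h (log2 change 0.40, adjusted p = 0.678). The part of cell division and of library make-up in the histone values was not tested. Histone genes have near-identical copies, and reads that fit several places were left out of the counts, so single histone genes are uncertain.

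Ribosomal protein genes were also lower at 12 h, by a smaller and more even amount. Of 46 tested, 40 were lower in all 4 pairs and 33 had an unadjusted p under 0.05, with a median log2 change of -0.35 (-0.37 and -0.17 in the NIL pairs, -0.52 and -0.32 in the NIP pairs). Rps24, a protein of the small subunit, had 326 and 515 CPM in NIL and 473 and 648 CPM in NIP at 12 h, against 496 and 712 CPM in NIL and 689 and 699 CPM in NIP at 0 h. Every pair was lower but the groups overlapped (log2 change -0.43 ± 0.13, adjusted p = 0.477). Rpl38, of the large subunit, had a log2 change of -0.65 ± 0.19. Among nuclear genes of the respiratory chain, 18 of 45 were lower in all pairs (median -0.19), with Ndufa2, a complex I subunit, at -0.70 ± 0.19. Proteasome genes gave 12 of 35 (median -0.14), with Psmb6, a catalytic subunit, at -0.37 ± 0.13. For the last pair of lists the second NIL pair stood apart, with medians of 0.04 and 0.03.

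Genes of these lists are short, and the change went with exon length over all genes. The median log2 change was -0.26 for 463 genes with under 1 kb of exon, -0.14 from 1 to 2 kb, -0.04 from 2 to 4 kb, 0.03 from 4 to 8 kb and 0.08 for 2569 genes over 8 kb. In the shortest class 32.8% of genes were lower in all 4 pairs and in the longest 3.93%, while 2.81% and 19.1% were higher. NIL replicate 2 followed this order only in the shortest class, with -0.31, and had -0.06 in the longest. The median exon length was 630 bases for the histone list, 1835 for ribosomal protein genes, 3053 for immediate early genes and 4426 for all genes. The share of reads that fit more than 1 place was lower at 12 h in each pair as well: 21.2% and 42.5% in NIL and 18.4% and 18.2% in NIP at 12 h, against 24.2% and 44.1% in NIL and 28.2% and 34.6% in NIP at 0 h. The part of transcript length and library make-up in the lists of short genes was not tested.

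**Figure D3:**
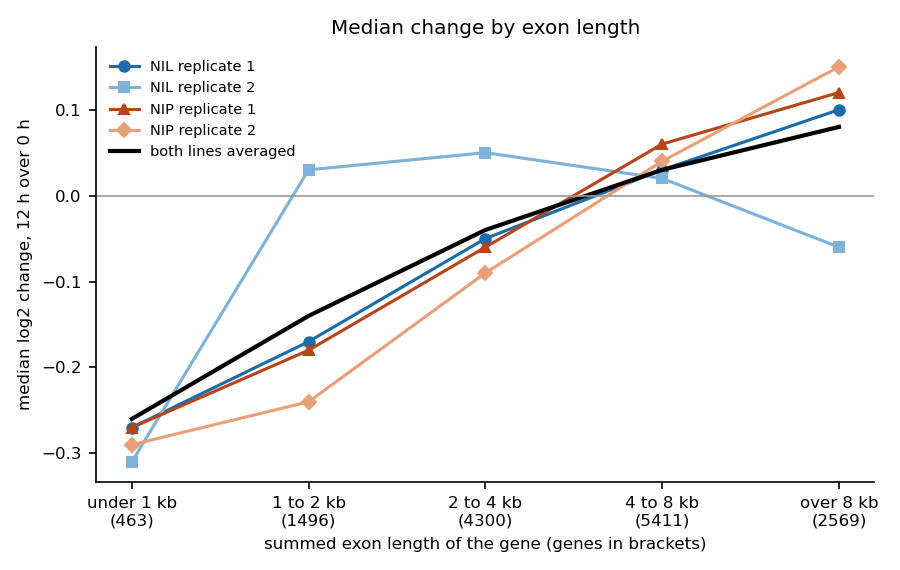
Median log2 change from 0 h to 12 h by summed exon length, for each pair of libraries (coloured) and for both lines averaged (black); gene numbers stand in brackets. The averaged median goes from -0.26 under 1 kb to 0.08 over 8 kb, and NIL replicate 2 departs from that order above 1 kb.

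Some lists of neuronal genes with long transcripts were on the higher side and others were not. For scale, 12.6% of all genes were higher and 11.2% lower in all 4 pairs. Among genes with 4 to 8 kb of exon these shares were 16.2% and 7.61%, and over 8 kb they were 19.1% and 3.93%. Of 30 sodium and calcium channel genes 12 were higher and 0 lower at 12 h in all 4 pairs, with a median log2 change of 0.16 (0.23 and 0.00 in the NIL pairs, 0.30 and 0.16 in the NIP pairs) and a median exon length of 8963 bases. Cacng5, an auxiliary subunit related to those of AMPA receptors, had 17.9 and 9.52 CPM in NIL and 174 and 92.7 CPM in NIP at 12 h, against 10.6 and 6.69 CPM in NIL and 116 and 78.8 CPM in NIP at 0 h. NIP lay far above NIL at both times, and every pair was higher at 12 h (log2 change 0.55 ± 0.19, adjusted p = 0.513). Scn9a, a sodium channel of peripheral neurons, had a log2 change of 0.37 ± 0.14, and Cacnb4, a calcium channel beta subunit, 0.53 ± 0.17. Potassium channel genes gave 12 of 42 higher in all pairs and 3 lower (median 0.11), with Kcnh7 at 0.45 ± 0.15 and Kcna2 at 0.45 ± 0.19.

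Of 45 neurotransmitter receptor genes 11 were higher (24.4%) and 6 lower (13.3%) in all pairs, against 12.6% and 11.2% of all genes. Their median exon length was 6542 bases, and 16.2% of all genes with 4 to 8 kb of exon were higher. The list's median log2 change was 0.16, with -0.00 and 0.03 in the NIL pairs and 0.32 and 0.12 in the NIP pairs. Gria2, the AMPA receptor subunit that blocks calcium entry, had 37.6 and 8.71 CPM in NIL and 34.7 and 14.6 CPM in NIP at 12 h, against 21.3 and 5.50 CPM in NIL and 16.2 and 9.84 CPM in NIP at 0 h. Replicate 1 was above replicate 2 throughout, and each pair was higher at 12 h (log2 change 0.80 ± 0.23, adjusted p = 0.477). Of 14 subunits of GABA and glycine receptors on the list, grouped after their values were seen, 6 were higher and 3 lower in all pairs. Gabra2 had a log2 change of 0.80 ± 0.20 and Glra2 0.66 ± 0.21, while Glra1, at under 2 CPM, had -1.54 ± 0.83. Grm7, a presynaptic glutamate receptor, had 10.5 and 9.40 CPM in NIL and 7.46 and 8.31 CPM in NIP at 12 h, against 6.06 and 4.40 CPM in NIL and 5.59 and 6.05 CPM in NIP at 0 h, without overlap (log2 change 0.68 ± 0.20). Grm2, of the same receptor family, was lower without overlap, at 2.79 to 4.69 CPM at 12 h and 5.17 to 8.57 CPM at 0 h (log2 change -0.79 ± 0.24).

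Adhesion molecules of neurons counted 12 of 34 higher (35.3%) and 1 lower (2.94%) in all pairs, with a median of 0.14. Among all genes over 8 kb these shares were 19.1% and 3.93%. Cntn1, a contactin of axons, had a log2 change of 0.40 ± 0.15 and Cadm2, a synaptic cell adhesion molecule, 0.64 ± 0.15. Cntn2, an early axonal contactin, was the member lower in all pairs (-0.49 ± 0.20). Of 33 synaptic vesicle and release genes 10 were higher (30.3%) and 3 lower (9.09%), with a median of 0.10. Syn2, a synapsin, had 0.52 ± 0.18. In other lists with long exons, axon guidance genes had a median of -0.00 with 3 of 37 higher and 6 lower in all pairs. Postsynaptic scaffold genes had 0.05 with 2 of 19 each way, and neurotrophic receptor genes -0.01 with 3 of 28 each way. Neuronal RNA binding and splicing genes had 0.06 with 7 of 29 higher and 2 lower. The part of exon length in the neuronal lists was not tested. For the adhesion list and the channel list without potassium channels, the second NIL pair had medians of -0.01 and 0.00, so these shifts came from the other pairs.

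**Figure D4:**
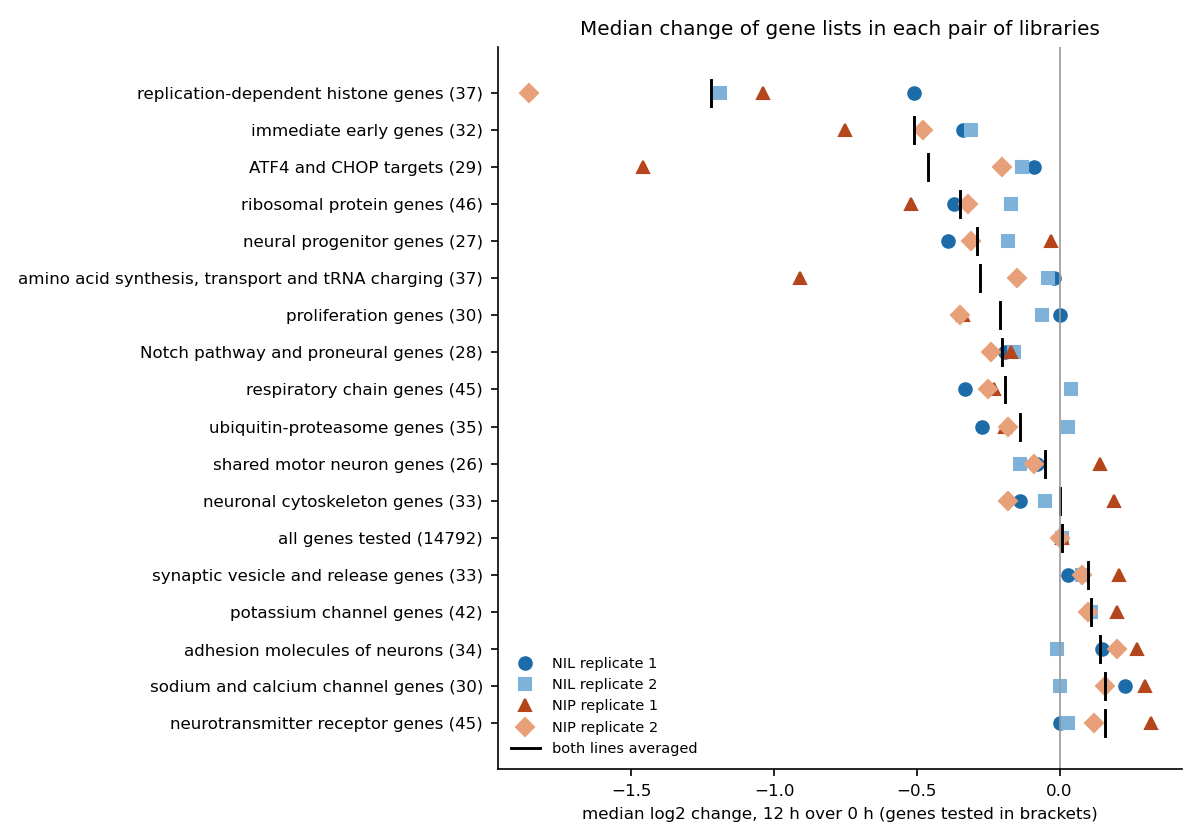
Median log2 change from 0 h to 12 h of 17 gene lists and of all genes tested, in each of the 4 pairs of libraries (symbols) and with both lines averaged (black bars). Histone, immediate early, ribosomal protein, neural progenitor and Notch pathway genes are below 0 in all pairs. So are the ATF4 and amino acid lists, which are set apart by NIP replicate 1.

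Genes shared by both motor neuron types and genes of the axonal skeleton had medians near 0. The 26 shared motor neuron genes had a median log2 change of -0.05, with 3 higher and 2 lower in all pairs, and the 33 neuronal cytoskeleton genes 0.00, with 5 and 4. The 13 spinal motor neuron factors had -0.04, with 1 higher and 2 lower. The 15 cranial factors had -0.19, with 1 each way in all pairs and 12 estimates below 0. For the cytoskeleton the first NIP pair stood apart, with a median of 0.19 beside -0.18 in the second NIP pair and -0.14 and -0.05 in the NIL pairs. In 2 of the 33 (6.06%, against 0.548% of all genes) every 12 h library was below every 0 h library: Tuba1a, an alpha-tubulin of young neurons, with 2285.5 to 2414.0 CPM at 12 h and 2797.5 to 3043.8 CPM at 0 h (log2 change -0.33 ± 0.15), and Tuba1b (-0.24 ± 0.11), both named after their values were seen. Tubulin genes are alike in sequence, so the split of reads between them is uncertain. Neurog2, the proneural factor of both programmes, had a log2 change of 0.00 ± 0.14 (95% interval -0.30 to 0.30) and Isl1 0.06 ± 0.12 (-0.19 to 0.31). Chat, which makes acetylcholine, had -0.00 ± 0.22 (-0.47 to 0.47), and Slc18a3, which loads it into vesicles, -0.27 ± 0.16. Tubb3, neuronal tubulin, had -0.24 ± 0.17, Map2, a dendritic microtubule protein, 0.14 ± 0.16 and Nefl, the light neurofilament, -0.07 ± 0.15. These intervals leave room for changes of up to about that size in either direction. Within the shared list Calca, the gene of calcitonin gene-related peptide, was higher in all pairs at 0.581 to 0.781 CPM at 12 h and 0.159 to 0.597 CPM at 0 h (log2 change 1.01 ± 0.44), and Ebf2, an early motor neuron factor, lower (-0.61 ± 0.22).

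Genes of the preceding stage were lower in part. Of 27 neural progenitor genes 8 were lower (29.6%) and 0 higher in all pairs, against 11.2% and 12.6% of all genes. Their median was -0.29, with -0.39 and -0.18 in the NIL pairs and -0.03 and -0.31 in the NIP pairs. In the first NIP pair 14 of the 27 were lower. Of 28 Notch pathway and proneural genes 7 were lower (25%) and 0 higher in all pairs (median -0.20). Sox9, a progenitor factor, had 3.06 and 5.46 CPM in NIL and 2.13 and 5.02 CPM in NIP at 12 h, against 3.89 and 11.4 CPM in NIL and 12.3 and 7.04 CPM in NIP at 0 h (log2 change -1.21 ± 0.34). Each pair was lower, by most in the first NIP pair. Vim, an intermediate filament of progenitors, had -0.24 ± 0.12, Gadd45g, a gene of newborn neurons, -0.64 ± 0.21 and Hes5, a Notch target, -0.72 ± 0.40 with 3 of 4 pairs lower.

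Markers of other cells were measured as well. Pluripotent stem cell genes summed to 74.4 to 535 CPM at 12 h and 77.8 to 482 CPM at 0 h, with 2 of 21 lower in all pairs, and Pou5f1, a pluripotency factor, reached 48.9 CPM at 12 h and 35.1 CPM at 0 h in NIL replicate 2. Endoderm and endothelium genes summed to 1111.9 to 12960.4 CPM at 12 h and 1231.3 to 12416.5 CPM at 0 h, with 1 of 22 lower in all pairs. Mesenchyme genes summed to 87.9 to 418 CPM at 12 h and 121 to 498 CPM at 0 h, with 5 of 17 lower in all pairs, and astrocyte and oligodendrocyte genes to 328 to 657 CPM at 12 h and 299 to 657 CPM at 0 h, with 2 of 13 higher. Of 13 microglia and blood genes 2 passed the filter on low counts and 5 had no read in the 8 libraries. The part of these cells in the differences above was not tested.

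Targets of the stress factors ATF4 and CHOP were lower mainly in the first NIP pair, and no gene passed the test of the difference between the lines. ATF4 and CHOP targets, the effectors of the integrated stress response, had a median log2 change of -0.46 with 11 of 29 lower in all pairs, but the pairs gave -0.09 and -0.13 in NIL and -1.46 and -0.20 in NIP. Chac1, which degrades glutathione, had 1.16 and 3.13 CPM in NIL and 1.94 and 17.8 CPM in NIP at 12 h, against 1.72 and 3.64 CPM in NIL and 27.8 and 25.5 CPM in NIP at 0 h. Both NIP libraries at 0 h were high, as was the second NIP library at 12 h, so the first NIP pair sets most of the difference (log2 change -1.06 ± 0.56). Genes of amino acid synthesis and transport and of tRNA charging showed the same pattern, with medians of -0.02 and -0.04 in the NIL pairs and -0.91 and -0.15 in the NIP pairs. With the second NIP library at 12 h left out, the NIP group at that time is 1 library, assumed to vary like the other groups. In that fit Trim66, Stc2 and Slc6a9 passed edgeR's test with log2 changes of -2.62, -1.75 and -1.33 (adjusted p of 0.00134, 0.0468 and 0.00533), against -1.17, -0.75 and -0.62 with all libraries. Atf4 itself had a log2 change of -0.50 ± 0.19 and was lower in all pairs, and Ppp1r15a, which restores translation after stress, -0.60 ± 0.16. Hspa5, the main chaperone of the endoplasmic reticulum, had 351 and 493 CPM in NIL and 355 and 369 CPM in NIP at 12 h, against 350 and 437 CPM in NIL and 693 and 425 CPM in NIP at 0 h, where the first NIP library stood out (log2 change -0.28 ± 0.17), and Ddit3, which encodes CHOP, had -0.49 ± 0.23.

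In neither line alone did a gene pass edgeR's test, while Fos passed in each line with DESeq2, as given above. The smallest adjusted p was 0.313 in NIL and 0.379 in NIP, with 297 (2.01%) and 1229 (8.31%) genes at an unadjusted p under 0.05. No gene passed the test of the difference between the lines either (smallest adjusted p = 1; 254 genes, or 1.72%, unadjusted), and DESeq2 called 0 there. That test was less precise: its 95% interval lay within 1 log2 unit of 0 for 8825 genes (59.7%), so line differences below that size were often not detectable. Both NIL pairs went one way and both NIP pairs the other for 9.33% of genes. For Fos the NIP change minus the NIL change was -0.30, with a 95% interval of -1.60 to 1.00, and for Crabp2 it was 0.40, with -0.38 to 1.17.

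The 36 h untreated libraries show where these genes stood later. The comparison of 36 h with 12 h uses the same 12 h libraries, so only its own values are set beside those above. One 36 h library, NIP replicate 1, stood apart, with 38.6% of gene reads from Rn45s against 5.18% to 20.4% in the other 11 untreated libraries, and 18.7% of reads outside genes against 7.77% to 15%. The edgeR test called 111 genes (0.75%), 98 higher (0.663%) and 13 lower (0.0879%) at 36 h. Without that library it called 28, all higher at 36 h, of which 24 were among the 111; the lone NIP library at 36 h is then assumed to vary like the other groups.

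Calls that held in both fits were Cacng5 (log2 change 1.32, adjusted p = 0.00606; 1.43 and 0.0145 without the library), Grm7 (1.61, adjusted p = 0.00146; 1.56 and 0.014), Glra2 (1.49, adjusted p = 0.00146; 1.43 and 0.014) and Kcna2 (1.08, adjusted p = 0.00863; 1.13 and 0.0416), which rose after 12 h. Crabp2 averaged 16.4 CPM at 0 h, 7.49 CPM at 12 h and 3.05 CPM at 36 h. Its log2 change after 12 h was -1.23 (adjusted p = 0.00893), and -1.19 (adjusted p = 0.0566) without the library. Chl1 averaged 13.3, 21.1 and 34.7 CPM at 0, 12 and 36 h, with a log2 change after 12 h of 0.68 (adjusted p = 0.0214), and 0.55 (adjusted p = 0.125) without the library. Syn2 (1.02, adjusted p = 0.0181) and Nlgn3, a postsynaptic adhesion molecule (1.04, adjusted p = 0.0143), likewise missed the threshold without it, at 1.05 (adjusted p = 0.0754) and 1.05 (adjusted p = 0.0582). For Nlgn3 the change to 12 h was 0.25 ± 0.19.

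No immediate early gene passed from 12 h to 36 h. Their median was 0.03, and 0.00 without the library that stood apart, with 0 of 32 passing in either fit. Fos averaged 47.4 CPM at 0 h, 10.7 CPM at 12 h and 16.3 CPM at 36 h (36 h minus 12 h, log2 0.43, adjusted p = 0.587), and Egr1 166, 36.4 and 36.2 CPM. Both stayed below every 0 h library at 36 h. Clk1 averaged 27.3, 45.5 and 39.8 CPM (36 h minus 12 h, log2 -0.20). The histone list had a median of 0.59 from 12 h to 36 h, opposite in sign to its change to 12 h, and 0.30 without that library, with 0 of 37 passing in either fit. Hist1h1e had 0.58 (adjusted p = 0.31), and 0.29 (adjusted p = 0.687) without it.

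**Figure D5:**
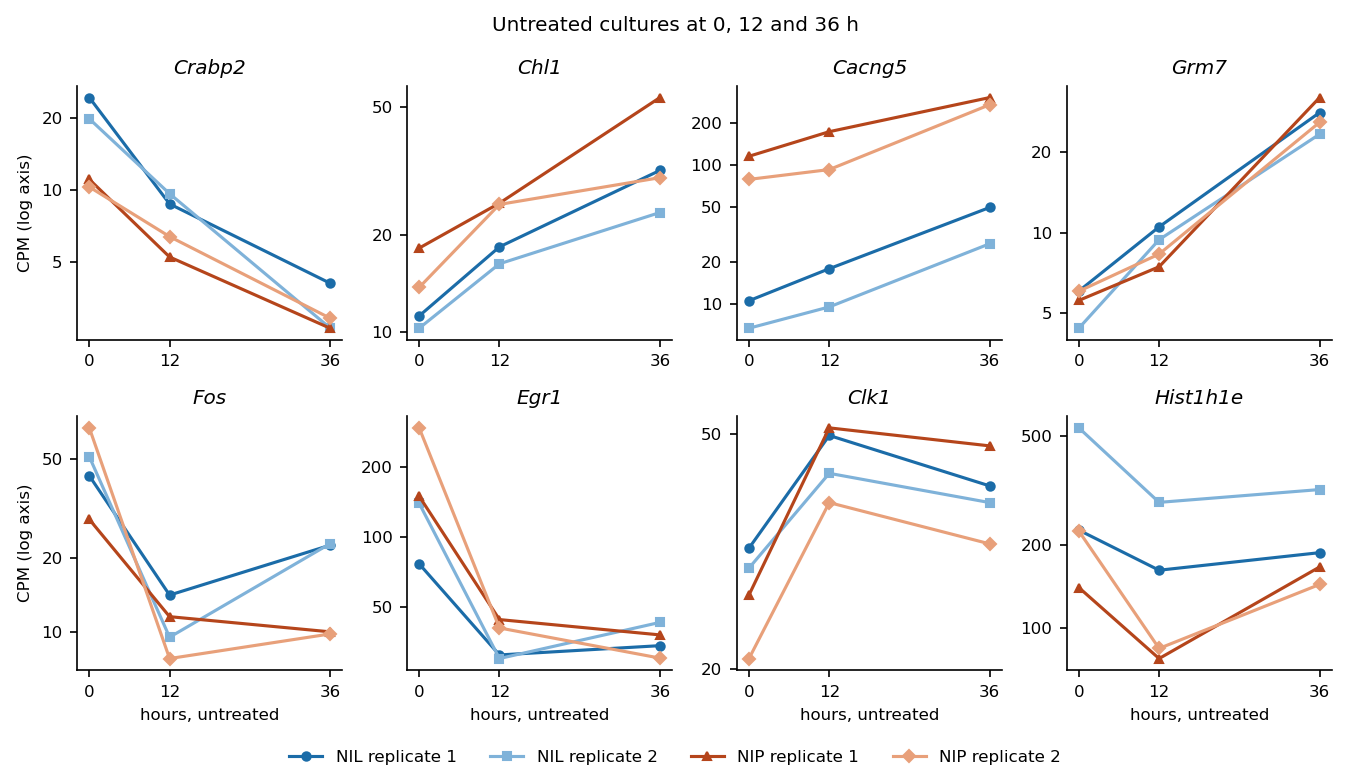
Levels in CPM (log axes) of 8 genes in untreated cultures at 0, 12 and 36 h; lines join libraries of the same line and replicate number. Crabp2 goes down and Chl1, Cacng5 and Grm7 go up at both steps in every line and replicate, Fos and Egr1 are low at 12 h and 36 h, and Clk1 is highest at 12 h.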

How the data were processed

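Total RNA was sequenced in 20 libraries after depletion of ribosomal RNA (KAPA RNA HyperPrep with RiboErase), per the labels' protocols. The deposited values are whole-number read counts for 24421 gene symbols, with 5 summary lines per library that were kept out of library sizes and tests. GRCm38 (mm10) is the build listed, and HTSeq 0.6.1p1, Picard, Bowtie2 2.3.2 and TopHat2 2.1.1 are listed as tools, per the submitters' processing notes. The strand setting and the annotation are not given in the sources used here, so overlapping and antisense genes are uncertain.

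Counts were fitted with edgeR 4.0.16 in R 4.3.3 (filterByExpr, TMM, robust quasi-likelihood, Benjamini-Hochberg over 14792 genes). All 20 libraries entered, with 1 mean per group and the replicate number as a block, and the change is the mean of both lines' 12 h minus 0 h differences. The model had 9 residual degrees of freedom and a biological coefficient of variation of 15.7%. Samples of the same number deviated together (r of 0.203 to 0.705 over 45 pairs of groups), so the numbers from the titles were taken to pair the samples. A change was called shared where it passed and had 1 direction in all 4 pairs of libraries of the same line and number. Log2 CPM used a prior count of 0.5, and CPM were scaled to TMM-adjusted library sizes. Exon lengths came from the GENCODE annotation, as the union of a gene's exons, and promoters came from RefSeq. Depth limits the precision: counting error matters most for genes with a few reads per library.

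Genes to name were to be the 12 largest changes each way among shared changes, up to 4 that pass from each of 52 lists, line differences, and fixed cell type and stress genes. Since none passed, genes among the 12 with the smallest p and members of the lists were named after their values were seen. A few genes are not reported here. The comparison, the lists and the fixed genes were chosen with earlier results of these data known, and no list was tested as a set. Alternatives were DESeq2 1.42.0, its size factors, no filter on low counts, other blocks, fewer libraries, leaving out Rn45s and leaving out each library.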

Additional observations from a re-analysis of the deposited data

Results flagged for a closer look

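For 5 gene lists both NIL pairs had a median change of one sign and both NIP pairs the other; none of these differences between the lines was tested, out of 52 lists looked at. Endoderm and endothelium genes had pair medians of -0.27 and -0.31 in NIP and 0.40 and 0.05 in NIL, a difference (NIP minus NIL, log2) of -0.52. ER chaperones and folding enzymes had -0.50 and -0.08 in NIP and 0.06 and 0.15 in NIL, a difference of -0.39. The difference was 0.24 for snoRNA host genes, 0.18 for cholesterol synthesis genes and 0.17 for BMP and TGF-beta pathway genes.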

How the results depend on the processing

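With both lines averaged, edgeR called 0 genes. Each alternative's calls were also shared over all complete pairs in its fit. These were 4 pairs, or 3 where 1 of the 0 h or untreated 12 h libraries was left out. DESeq2 called 18 (16 lower, 2 higher), a replicate block within each line 10 (7 lower, 3 higher), the 12 untreated libraries alone 7 (5 lower, 2 higher), no filter on low counts 4, and DESeq2's size factors and leaving out Rn45s 2 each. Without the replicate block, with the 8 libraries alone or with additive line and replicate blocks, 0 were called. Leaving out 1 library gave 0 to 3 calls, with 3 only without NIP replicate 2 at 12 h. The 36 h against 12 h comparison went to 28 calls without NIP replicate 1 at 36 h, an alternative chosen after seeing the data, against 111 with it. The fit with additive blocks holds no test by line. Genes passing in both lines numbered 1 with DESeq2, and 0 in the other fits that tested each line. The difference between the lines had 0 calls in every alternative that tested it. The cause was not tested. Ier2 and Junb were called in 6 of 18 alternatives, Crabp2 in 4, Clk1 and Egr3 in 3. The adjusted p of edgeR's test moved widely. Its highest value over the alternatives was 0.334 for Fos and 0.802 for Egr2, Egr3 and Crabp2, and higher still for Ier2 and Junb.

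Some named genes changed sign, among them genes near 0. Chat had log2 changes of 0.01 with no filter, 0.03 with no replicate block and 0.00 with the block within each line, and Neurog2 -0.00 with no replicate block, -0.01 with 12 libraries, -0.00 with 8 libraries and -0.00 with additive blocks. Leaving out 1 library moved Chat between -0.19 and 0.16, Neurog2 between -0.07 and 0.07, Nefl between -0.18 and 0.05, Jun between -0.09 and 0.39 and Pou5f1 between -0.59 and 0.88. Phox2a (-0.22 with all libraries) moved between -0.92 and 0.28, Mnx1 (-0.47) between -0.92 and 0.08 and Lhx3 (-0.63) between -0.92 and 1.76. Lhx3 and Mnx1 were near absent in NIP and Phox2a was scarce in NIL, so these averages rest partly on a line with few reads.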
